A study of Mus musculus with 10 samples.

Results

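Collagen chain genes were described in lung RNA of BALB/c mice given the cytokine IL-33 through the nose. Members were the protein-coding genes with a symbol of the form Col, number, a, number, 44 of the 53465 genes listed in the files. Of these, 11 encode fibrillar chains, 6 type IV, 6 type VI, 9 fibril-associated (FACIT) chains, 4 transmembrane chains, 3 chains of the basement membrane zone, 3 short chains and 2 others. The low-count filter passed 37 members and left out Col11a1, Col9a1, Col9a2, Col19a1, Col22a1, Col25a1 and Col26a1.

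The study sequenced polyA-selected RNA of whole lung in 10 samples, 5 in each group. IL-33 mice received 1 µg of intranasal IL-33 in 35 µL once a day for 5 days. Their lungs were removed 24 hours after the final dose. The controls were described as untreated. The sources used here do not give genotype beyond the strain, age, sex or whether controls received vehicle, and the instillation and IL-33 itself cannot be told apart. Libraries held 7805175 to 13767118 reads counted in genes. Reads with several alignments were 15% to 16.2% of records in controls and 20% to 22.8% in IL-33 libraries, and reads in no gene 10.4% to 11.1% and 11.4% to 13.7%, neither overlapping between groups, and their part in the results was not tested. Levels are counts scaled to TMM-adjusted library size (CPM), given as mean ± SD of 5 libraries. Levels of different genes were compared only after division by exonic length in kilobases (RPKM). Every log2 fold change sets IL-33 over control. Their SE comes from the spread of the libraries, and their adjusted p from edgeR's quasi-likelihood test, adjusted by Benjamini-Hochberg over 15695 genes. "Rose" and "fell" are used at an adjusted p under 0.05, and "called" means past that threshold.

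Collagens are trimers of chains wound into a triple helix, in which glycine recurs at every triplet of residues. Fibrillar collagens of types I, III and V form the tensile fibrils of airway and vessel walls and of the interstitium. Type IV collagen forms the sheet-like network of basement membranes, with the chains of Col4a3, Col4a4 and Col4a5 assembling into a trimer of the alveolar and glomerular basement membranes. Type VI collagen forms beaded filaments next to cells, from the chains of Col6a1 and Col6a2 with a further long chain, for which Col6a3, Col6a4, Col6a5 and Col6a6 encode alternatives. FACIT chains decorate fibrils, and transmembrane collagens stay anchored in the cell surface. After translation, chains are hydroxylated, folded by chaperones, exported, trimmed, and cross-linked outside the cell.

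The glycine repeat is visible in single exons of 54 bases, each coding for 6 triplets. The following exons of a type I, a type III and a type VI chain gene are printed 5′ to 3′ on the coding strand of GRCm38 (GENCODE annotation), with glycine codons in capitals, since these genes were among those that rose and they show the same repeat in different classes. They are exon 8 of Col1a1 (chr11:94939904-94939957, plus strand), exon 6 of Col3a1 (chr1:45325360-45325413, plus strand) and exon 13 of Col6a5 (chr9:105918186-105918239, minus strand), all coding.
Col1a1 exon 8: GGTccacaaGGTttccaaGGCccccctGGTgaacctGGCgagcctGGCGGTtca
Col3a1 exon 6: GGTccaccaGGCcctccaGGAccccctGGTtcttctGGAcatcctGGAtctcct
Col6a5 exon 13: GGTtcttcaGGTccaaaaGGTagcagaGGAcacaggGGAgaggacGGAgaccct

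The classes differ in how long this repeat runs. In the translated annotation, the longest unbroken run was 337 to 344 triplets in 9 of the 11 fibrillar chains, and 216 and 217 triplets in Col24a1 and Col27a1. Type IV chains had 39 to 66 triplets in their longest run and 22 to 27 separate runs of at least 5 triplets. Type VI chains had 37 to 87 triplets in their longest run. Exons with 54 coding bases made up 41.2% to 55.0% of coding exons in fibrillar genes and 2.13% to 5.66% in type IV genes.

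Of the 37 collagen chain genes tested, 11 rose and 18 fell in IL-33 lungs, and 8 were not called. Col6a5, a long type VI chain, had the largest rise, and Col4a3, a type IV chain, the largest fall. In shares, 78.4% of the members tested were called, against a background of 69.9% of all genes tested. Members that rose were 29.7% of those tested, against 35.1% of all genes, and members that fell were 48.6%, against 34.8%. In 23 members, or 62.2%, the control and IL-33 values did not overlap, against 56.5% of all genes. The median log2 fold change was -0.28 over the members and -0.01 over all genes.

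Collagen genes are long, and length moved with the outcome. Their median exonic length was 7464 bases, against 4170 over all genes tested. Among the 9898 genes tested with an exonic length between 3130 and 15228 bases, the range of the members, the median log2 fold change was -0.15, with 26.8% higher and 43.8% lower. Once trends on exonic length and on GC content had been removed from each library, 15 of 37 members were higher and 14 lower. Of all 15695 genes, 4673 (29.8%) were higher and 6077 (38.7%) lower in that fit. The members' median was 0.13, against -0.09 over all genes. The 2 counts therefore give different splits. This correction, called the length correction below, removes both trends at once. The parts of length and of GC content in single members were not tested apart.

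**Figure D1:**
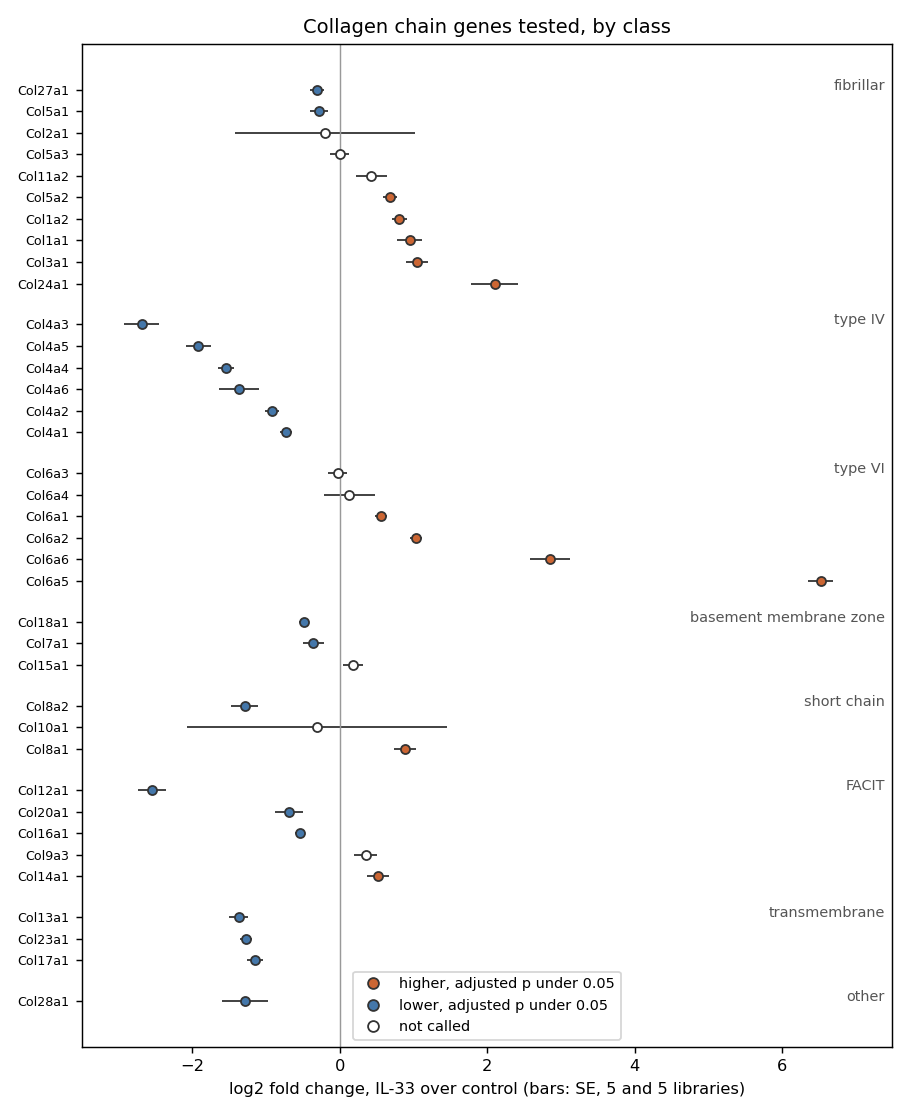
Log2 fold change of IL-33 over control (x axis) for the 37 collagen chain genes tested, grouped by class, with bars for the SE over 5 and 5 libraries. Points are filled where the adjusted p is under 0.05; Col6a5 lies at 6.53, Col4a3 at -2.69 and all 6 type IV genes below 0.

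The division of reads among the classes differed between groups, while the sums overlapped. All collagen chain genes together took 0.776% ± 0.0542 of counted reads in control and 0.857% ± 0.0885 in IL-33 libraries. The fibrillar share of counted reads was 0.244% ± 0.0327 in control and 0.440% ± 0.0613 in IL-33, the type VI share 0.106% ± 0.00874 and 0.195% ± 0.0227, and the type IV share 0.357% ± 0.0254 and 0.175% ± 0.0193. In the 5 controls type IV genes took 42.1% to 48.2% of collagen reads and fibrillar genes 29.0% to 34.9%. In the 5 IL-33 libraries type IV took 18.6% to 23.4% and fibrillar 47.1% to 56.7%, with no overlap between groups for either share.

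**Figure D2:**
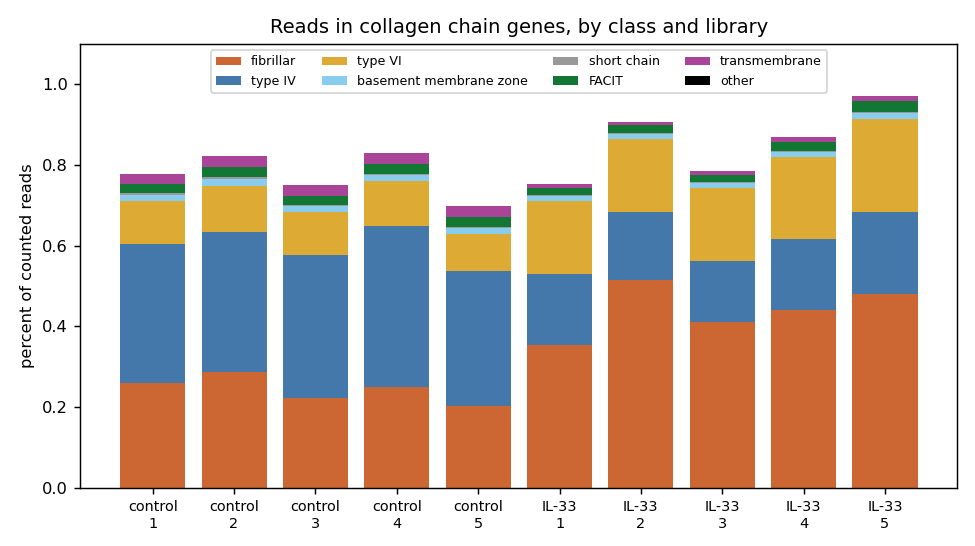
Percent of counted reads in collagen chain genes (y axis) in each of the 10 libraries (x axis), stacked by class. The type IV segment spans 0.335% to 0.400% in controls and 0.151% to 0.204% in IL-33 libraries, while the fibrillar segment spans 0.202% to 0.287% and 0.355% to 0.514%.

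Per length, the order of the genes changed with it. Col4a1 and Col4a2 were at ranks 1 and 2 in controls, at 210 and 183 RPKM, and at ranks 4 and 6 in IL-33 lungs, at 126 and 96.6 RPKM. Col3a1 was at rank 4 in controls at 87.6 RPKM and at rank 1 in IL-33 lungs at 181 RPKM. Col6a5 stood at rank 32 in controls, at 0.363 RPKM, and at rank 8 in IL-33 lungs, at 33.7 RPKM, above Col6a3 at 20.3 RPKM. Col4a3 went from rank 8 at 36.7 RPKM to rank 19 at 5.66 RPKM.

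Among fibrillar genes, those of types I and III, the main collagens of fibrils, rose together with Col5a2 and Col24a1. Of 10 tested, 5 rose, 2 fell and 3 were not called. Counts by class, here and below, stand beside 35.1% higher, 34.8% lower and 56.5% without overlap of all genes tested. Col3a1, the chain of type III collagen in distensible tissue (ENSMUSG00000026043, chromosome 1, 45311538 to 45349706), measured 943, 1011, 792, 892 and 660 CPM in controls 1 to 5 and 1437, 2069, 1682, 1677 and 2026 CPM in IL-33 libraries 1 to 5. Every IL-33 library lay above every control. The log2 fold change was 1.05 ± 0.15 (SE, adjusted p = 1.09e-05).

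Col1a1 and Col1a2, which encode the pair of chains of type I collagen, went from 506 ± 83.7 to 976 ± 205 CPM (log2 0.95 ± 0.17, adjusted p = 7.37e-05) and from 735 ± 83.8 to 1288 ± 156 CPM (log2 0.81 ± 0.10, adjusted p = 1.26e-05). Neither gene's groups overlapped. Within libraries the ratio of Col1a2 to Col1a1 reads was 1.46 in controls and 1.33 in IL-33 lungs (geometric means), which an exact permutation test did not call (two-sided, adjusted p = 0.130 over 12 pairs). Without IL-33 library 1 this ratio was called, with an adjusted p of 0.0381. The ratio of Col3a1 to Col1a1 was 1.70 and 1.84, also not called (adjusted p = 0.222).

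The genes of type V collagen, which regulates how wide fibrils grow, changed in their read ratios. Col5a2 measured 153, 158, 138, 166 and 132 CPM in controls 1 to 5 and 219, 241, 219, 229 and 289 CPM in IL-33 libraries 1 to 5. It rose by a log2 fold change of 0.68 ± 0.10 (adjusted p = 2.16e-05) with no overlap. Its partner Col5a1 measured 110, 116, 99.6, 118 and 94.2 CPM in controls and 70.5, 93.8, 78.9, 96.4 and 102 CPM in IL-33 libraries. Those ranges overlapped, and the fall of Col5a1 (log2 -0.28 ± 0.12, adjusted p = 0.0254) was at 0.03 (adjusted p = 0.755) after the length correction. Within libraries the ratio of Col5a2 to Col5a1 was 1.35 to 1.42 in controls and 2.38 to 3.10 in IL-33 lungs, a geometric mean of 1.39 against 2.72 (exact permutation test, adjusted p = 0.0119).

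Col5a3, a further type V chain, measured 13.2, 11.8, 9.12, 11.5 and 8.54 CPM in controls and 9.77, 11.4, 10.1, 12.2 and 10.8 CPM in IL-33 libraries, and was not called (log2 0.00 ± 0.13, adjusted p = 0.990). The length correction placed it at 0.36 (adjusted p = 0.0342). Its ratio to Col5a1 was 0.10 in controls and 0.124 in IL-33 lungs (exact permutation test, adjusted p = 0.0190).

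Col24a1, a fibrillar chain with a shorter repeat, rose from a low level. Controls measured 0.353, 1.09, 1.13, 0.613 and 0.854 CPM, 41 reads in all, and IL-33 libraries 2.76, 4.14, 4.54, 3.27 and 2.38 CPM, 173 reads. The groups did not overlap, and the log2 fold change was 2.10 ± 0.32 (adjusted p = 3.69e-05). Col27a1, its closest relative by repeat length, went from 41.5 ± 1.74 to 33.2 ± 4.81 CPM (log2 -0.31 ± 0.10, adjusted p = 0.00854), and stood at 0.13 after the length correction (adjusted p = 0.116). Col11a2, a chain of type XI collagen, was not called at 6.81 ± 1.26 and 9.05 ± 2.12 CPM (log2 0.43 ± 0.21, adjusted p = 0.0562). It was called under the length correction (log2 0.83, adjusted p = 7.97e-04), without control library 2 (0.50, adjusted p = 0.0405) and without IL-33 library 1 (0.56, adjusted p = 0.00603).

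Type VI genes held the largest rise of any collagen chain gene. Of 6 tested, 4 rose and 2 were not called, beside 35.1% higher of all genes tested. Col6a5 (ENSMUSG00000091345, chromosome 9, 105856078 to 105960643, minus strand) measured 3.74, 4.59, 3.04, 3.06 and 2.66 CPM in controls 1 to 5 and 245, 333, 320, 316 and 371 CPM in IL-33 libraries 1 to 5. The gap between the highest control and the lowest IL-33 library was wider than either group. Reads summed to 185 in controls and 16901 in IL-33 libraries, and the log2 fold change was 6.53 ± 0.17 (92.5-fold, adjusted p = 2.75e-11). Col6a5 took 0.323% ± 0.0548 of type VI reads in controls and 16.2% ± 1.83 in IL-33 libraries.

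Col6a6, its neighbour and another long type VI chain gene (ENSMUSG00000043719, chromosome 9, 105687809 to 105828160, minus strand), measured 3.60, 4.92, 2.48, 3.24 and 3.13 CPM in controls and 14, 28.9, 20.2, 30.8 and 31.4 CPM in IL-33 libraries. It rose by a log2 fold change of 2.85 ± 0.27 (adjusted p = 3.73e-07) with no overlap. Col6a4 (ENSMUSG00000032572, chromosome 9, 105989454 to 106096783, minus strand), on the other side of Col6a5, had overlapping values of 3.82, 1.31, 1.46, 2.10 and 1.99 CPM in controls and 3.06, 2.64, 1.30, 1.71 and 3.20 CPM in IL-33 libraries, and was not called (log2 0.13 ± 0.35, adjusted p = 0.731).

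These 3 genes lie in a row on the same strand, with 27917 bases between Col6a6 and Col6a5 and 28810 between Col6a5 and Col6a4. Col6a5 and Col6a6 share sequence: 2.89% of the 75-base windows of Col6a5 and 2.97% of those of Col6a6 occur in the other gene or a further one, and at 50 bases 3.42% and 3.70%. The files keep reads with more than 1 alignment in a separate entry, and whether reads of Col6a5 were assigned to Col6a6 was not tested.

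The bases before the start of each of these genes were searched for motifs, since neighbours on the same strand differed in response. Shown are the stretches up to 250 bases upstream of the RefSeq start (GRCm38.p6), without any base inside the gene's GENCODE exons, 5′ to 3′ on the minus strand: Col6a6 at chr9:105828161-105828335, Col6a5 at chr9:105960644-105960893 and Col6a4 at chr9:106096784-106096941. Capitals mark the motifs found on either strand. All 3 stretches held the GC box GGGCGG, that of Col6a4 also held a CCAAT box, and that of Col6a5 held the STAT-type motif TTCNNNGAA.
Col6a6 upstream: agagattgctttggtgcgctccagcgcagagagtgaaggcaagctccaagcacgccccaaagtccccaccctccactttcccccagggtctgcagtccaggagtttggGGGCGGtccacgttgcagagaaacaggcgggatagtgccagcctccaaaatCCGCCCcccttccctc
Col6a5 upstream: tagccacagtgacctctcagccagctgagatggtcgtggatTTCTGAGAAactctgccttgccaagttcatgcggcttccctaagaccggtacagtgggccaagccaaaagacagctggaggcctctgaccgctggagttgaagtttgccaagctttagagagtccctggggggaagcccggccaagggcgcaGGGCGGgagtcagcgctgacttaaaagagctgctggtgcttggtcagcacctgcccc
Col6a4 upstream: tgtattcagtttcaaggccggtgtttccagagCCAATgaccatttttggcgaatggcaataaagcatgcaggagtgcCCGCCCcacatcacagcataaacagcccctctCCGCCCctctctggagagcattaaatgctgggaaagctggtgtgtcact

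RefSeq upstream windows of 250 bases were found for 35 collagen chain genes, 38 windows in all, and compared with 32851 windows of all genes. GGGCGG was in 57.9% of collagen windows and 32.7% of all windows, CCAAT in 34.2% and 33.8%, and TATAAA in 13.2% and 12.4%, on either strand. TTCNNNGAA was in 2 collagen windows, Col6a5 and Col28a1, or 5.26% against 7.02% of all windows. TTCNNNNGAA, the spacing bound by STAT6 downstream of type 2 cytokines, was in 0 collagen windows (of 38) and 5.85% of all windows. A match is a description of these letters and not of a bound site.

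The genes of the 2 shorter chains of type VI rose and that of the common long chain did not pass the test. Col6a1 measured 443, 478, 450, 482 and 413 CPM in controls 1 to 5 and 647, 612, 612, 700 and 775 CPM in IL-33 libraries 1 to 5 (log2 0.56 ± 0.08, adjusted p = 4.49e-05). Col6a2 measured 334, 363, 362, 365 and 298 CPM in controls and 684, 691, 642, 711 and 799 CPM in IL-33 libraries (log2 1.03 ± 0.08, adjusted p = 2.33e-07). Neither overlapped between groups. Col6a3 measured 247, 298, 238, 260 and 197 CPM in controls and 254, 196, 229, 242 and 291 CPM in IL-33 libraries, with overlap (log2 -0.03 ± 0.13, adjusted p = 0.821), and the length correction called it higher (0.29, adjusted p = 0.0220).

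Read ratios of type VI chain genes changed in both directions. Within libraries the ratio of Col6a2 to Col6a1 was 0.720 to 0.804 in controls and 1.02 to 1.13 in IL-33 lungs, and that of Col6a3 to Col6a1 was 0.476 to 0.624 and 0.321 to 0.393. Both differed by exact permutation test (adjusted p = 0.0119), the first higher and the second lower in IL-33 lungs. The ratios carry no length correction, which placed Col6a3 at 0.29 and Col6a1 at 0.61 on the log2 scale. The long chain genes Col6a4, Col6a5 and Col6a6 together took 0.857% ± 0.162 of type VI reads in controls and 17.6% ± 2.05 in IL-33 libraries.

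**Figure D3:**
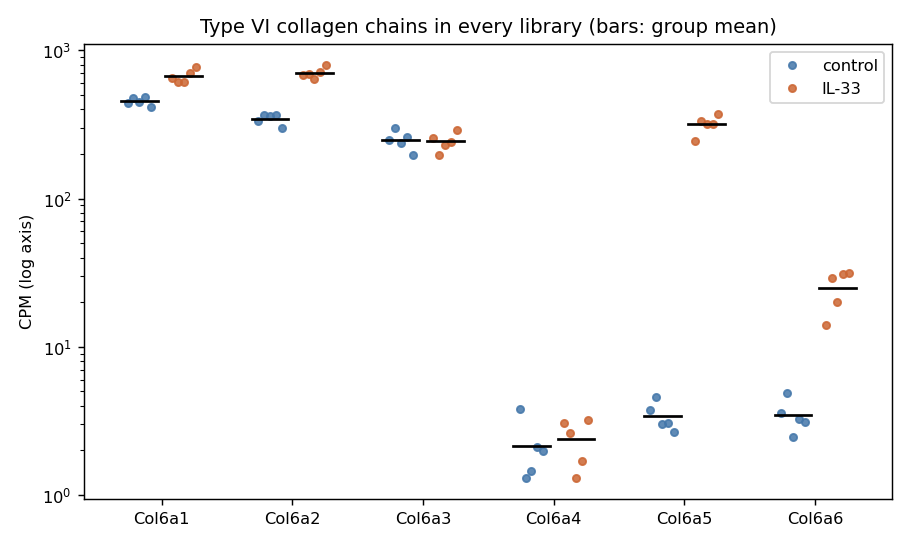
CPM on a log axis (y axis) of the 6 type VI collagen chain genes (x axis) in each control and IL-33 library, with bars at the group means. Col6a5 lies at 2.66 to 4.59 CPM in controls and 245 to 371 CPM in IL-33 libraries, while the groups of Col6a3 and Col6a4 overlap.

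Type IV genes fell without exception in the class. All 6 tested were lower and none overlapped between groups, with a median log2 fold change of -1.46. Of all genes tested 34.8% were lower and 56.5% did not overlap. After the length correction all 6 were lower as well. Col4a1 and Col4a2, chains of the network common to all basement membranes, had smaller changes than Col4a3, Col4a4 and Col4a5. Col4a1 measured 1515, 1500, 1591, 1807 and 1425 CPM in controls 1 to 5 and 965, 964, 819, 914 and 1049 CPM in IL-33 libraries 1 to 5 (log2 -0.73 ± 0.08, adjusted p = 9.75e-06). Its head-to-head partner Col4a2 measured 1132, 1161, 1261, 1370 and 1135 CPM in controls and 662, 654, 537, 631 and 713 CPM in IL-33 libraries (log2 -0.92 ± 0.09, adjusted p = 1.36e-06). Both remained the most abundant type IV genes per length in both groups.

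Col4a3 (ENSMUSG00000079465, chromosome 1, 82586921 to 82722059, plus strand) measured 312, 376, 358, 414 and 369 CPM in controls and 55.4, 31.9, 48.2, 60.7 and 85.7 CPM in IL-33 libraries. It fell by 2.69 ± 0.24 on the log2 scale (6.45-fold, adjusted p = 1.36e-07). A noncoding gene on the opposite strand, C430014B12Rik, covers 5.65% of its exonic bases, and the sources used here do not give the strand setting of the counting.

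Col4a4 (ENSMUSG00000067158, chromosome 1, 82448423 to 82586849, minus strand), whose start lies 72 bases from that of Col4a3 on the other strand, measured 239, 243, 231, 244 and 234 CPM in controls and 87.1, 61.9, 80.7, 84.1 and 95.0 CPM in IL-33 libraries (log2 -1.54 ± 0.11, adjusted p = 3.01e-08). Col4a5, on the X chromosome, measured 164, 162, 138, 168 and 153 CPM in controls and 36.8, 28.6, 39.3, 46.0 and 55.6 CPM in IL-33 libraries (log2 -1.92 ± 0.17, adjusted p = 1.21e-07). IL-33 library 2 was the lowest for Col4a3, Col4a4 and Col4a5, and library 5 the highest. Col4a6, paired with Col4a5 on the X chromosome, was scarce, at 2.40, 3.39, 1.80, 2.45 and 2.28 CPM in controls and 0.592, 0.574, 0.908, 1.01 and 1.49 CPM in IL-33 libraries (log2 -1.37 ± 0.27, adjusted p = 6.03e-04).

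Within libraries, the reads of type IV chain genes fell unequally. The reads of Col4a3, Col4a4 and Col4a5 made up 21.5% ± 1.15 of type IV reads in controls and 10.2% ± 1.87 in IL-33 libraries. The ratio of Col4a1 to Col4a3 was 3.86 to 4.85 in controls and 12.2 to 30.1 in IL-33 lungs, geometric means of 4.29 and 17.5. For Col4a4 to Col4a3 the geometric means were 0.654 and 1.51, for Col4a5 to Col4a3 0.430 and 0.751, and for Col4a2 to Col4a1 0.774 and 0.678. Each of these 4 ratios differed by exact permutation test (two-sided, adjusted p = 0.0119). The smallest exact p that 5 against 5 libraries allow is 0.00794. The ratio of Col4a6 to Col4a5, 0.0157 and 0.0226, was called (adjusted p = 0.0190) but not without IL-33 library 5 (adjusted p = 0.0571).

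**Figure D4:**
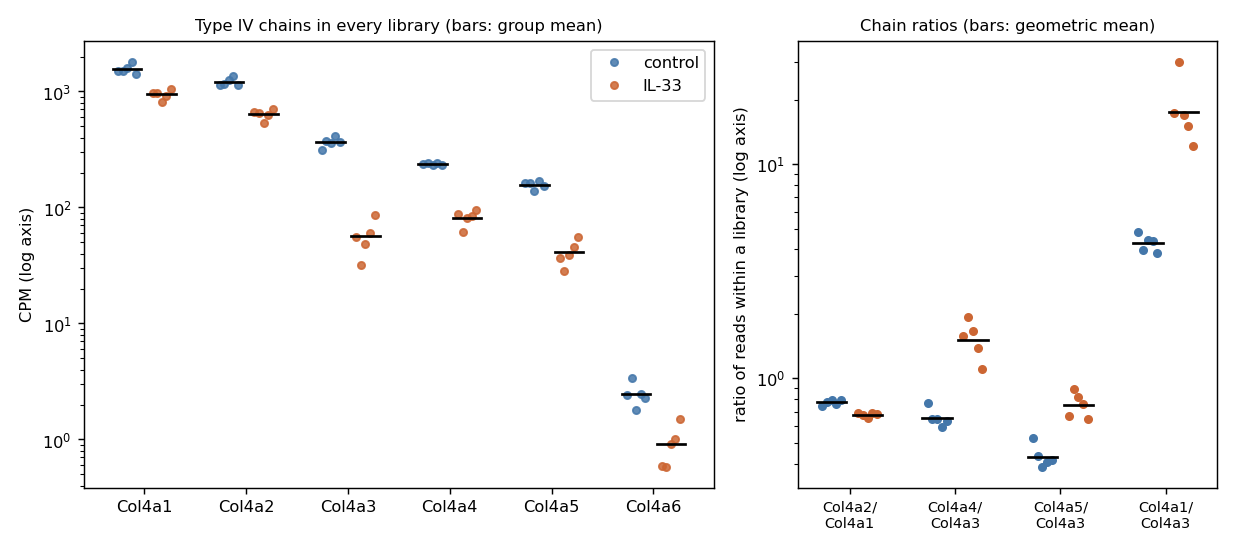
Left, CPM on a log axis of the 6 type IV collagen chain genes in each control and IL-33 library, with bars at the means. Right, ratios of reads of chain pairs within each library on a log axis, with bars at the geometric means; the ratio of Col4a1 to Col4a3 goes from 4.29 to 17.5 and that of Col4a2 to Col4a1 from 0.774 to 0.678.

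The other basement membrane genes that were tested fell with type IV. Of 17 listed partners, 16 were tested and all 16 fell, before and after the length correction, with a median log2 fold change of -1.19. Lama1, left out by the low-count filter, had a higher mean in IL-33 lungs. It was at 0.320 ± 0.294 and 1.07 ± 0.492 CPM (17 and 57 reads), with overlap. Of all genes tested 34.8% fell, and 38.7% after the correction. The partners tested included laminin chains, nidogens, perlecan (Hspg2), agrin, the peroxidase Pxdn that cross-links type IV collagen, and the laminin receptor Dag1. Col4a3bp, also listed, encodes a ceramide transporter and is no matrix protein. Lama3, a laminin chain of epithelial basement membranes, went from 190 ± 19.2 to 37.4 ± 10.1 CPM (log2 -2.34 ± 0.19, adjusted p = 6.09e-08). Dag1 went from 582 ± 21.2 to 181 ± 39.7 CPM (log2 -1.68 ± 0.14, adjusted p = 1.57e-07).

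Markers of the cells that make lung basement membrane were also mostly lower, against the same 34.8% of all genes. Of 9 alveolar type 1 markers 8 fell, and their summed level was 5991 to 6678 CPM in controls and 2627 to 3377 CPM in IL-33 libraries. Of 10 endothelial markers 6 fell and 4 were not called, with sums of 6249 to 7069 and 3027 to 4100 CPM, and of 7 pericyte markers 5 fell, with sums of 581 to 681 and 278 to 336 CPM. Cdh5, a junction gene of endothelium, fell by 1.59 on the log2 scale and Clic5 of type 1 cells fell by 1.79, while Cldn5 (-0.01, adjusted p = 0.947) and Pdpn (-0.05, adjusted p = 0.669), defining markers of the same 2 cell types, were not called. After the length correction 9 of 9 alveolar type 1 markers were lower, Pdpn among them, against 38.7% of all genes. So were 8 of 10 endothelial markers, with 1 higher, and 7 of 7 pericyte markers. In bulk tissue fewer cells of a type and less RNA per cell cannot be told apart, and the part of these cell types in the falls was not tested.

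Collagens of the basement membrane zone, which link basement membranes to the matrix below, changed by less. Of 3 tested, 2 fell and 1 was not called. Col18a1, the source of endostatin and the most abundant of the 3 per length, measured 104, 110, 112, 97.0 and 93.6 CPM in controls and 73.6, 73.9, 68.1, 73.5 and 77.9 CPM in IL-33 libraries (log2 -0.49 ± 0.06, adjusted p = 2.03e-05). The groups did not overlap, and the length correction left -0.15 (adjusted p = 0.0702). Col7a1, the anchoring fibril chain, went from 18.2 ± 3.11 to 14.1 ± 1.84 CPM (log2 -0.36 ± 0.14, adjusted p = 0.0271) with overlap, and stood at 0.11 (adjusted p = 0.355) after the length correction. Col15a1 was not called at 31.1 ± 6.19 and 35.3 ± 3.96 CPM (log2 0.18 ± 0.14, adjusted p = 0.209), and was called higher after that correction (0.38, adjusted p = 0.0135) and without control library 2 (0.27, adjusted p = 0.0409).

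The genes of the type VIII chains, short network collagens of vessel walls, moved in opposite directions. Col8a1 measured 13.1, 18.4, 11.1, 10.5 and 15.2 CPM in controls 1 to 5 and 25.3, 24.0, 25.2, 23.8 and 27.3 CPM in IL-33 libraries 1 to 5 (log2 0.88 ± 0.15, adjusted p = 6.10e-05). Col8a2 measured 15.2, 14, 10, 11.6 and 13.8 CPM in controls and 3.85, 5.05, 4.80, 7.09 and 5.42 CPM in IL-33 libraries (log2 -1.29 ± 0.18, adjusted p = 1.45e-05). Neither overlapped between groups. Their ratio, Col8a2 to Col8a1, was 0.763 to 1.16 in controls and 0.154 to 0.300 in IL-33 lungs, the largest shift among the 12 pairs tested, by -2.21 on the log2 scale (exact permutation test, adjusted p = 0.0119). Of the 12 pairs, 10 differed. Several pairs share a gene, and ratios of other gene pairs were not tested, so this count has no background share. Of all single genes tested, 69.9% were called.

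FACIT genes were divided. Of 9 members, 5 were tested, of which 1 rose, 3 fell and 1 was not called. Col14a1, which binds fibrils of type I collagen and was the most abundant FACIT gene per length, measured 90.6, 115, 78.6, 96.3 and 94.3 CPM in controls and 109, 136, 113, 155 and 167 CPM in IL-33 libraries. The groups overlapped at control library 2, and the log2 fold change was 0.52 ± 0.15 (adjusted p = 0.00254). Col12a1, a close relative with the same run of 32 triplets (ENSMUSG00000032332, chromosome 9, 79598991 to 79718831), measured 42.9, 50.2, 54.3, 57.8 and 47.9 CPM in controls and 7.60, 5.63, 8.04, 9.11 and 12.1 CPM in IL-33 libraries. It fell by 2.55 ± 0.19 on the log2 scale (adjusted p = 3.01e-08), with no overlap. Col16a1 went from 71.0 ± 3.19 to 48.6 ± 5.32 CPM (log2 -0.54 ± 0.07, adjusted p = 3.34e-05) and Col20a1 from 16.2 ± 3.24 to 9.94 ± 2.19 CPM (log2 -0.69 ± 0.19, adjusted p = 0.00302). Col9a3 was not called at 1.37 ± 0.229 and 1.72 ± 0.319 CPM, and 6.07% of its exonic bases lie under Tcfl5 on the other strand.

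Transmembrane collagens fell in all 3 genes tested, with no overlap, beside 34.8% lower and 56.5% without overlap of all genes. Col13a1, a collagen of cell adhesion sites, measured 132, 120, 140, 131 and 118 CPM in controls and 58.1, 36.0, 48.0, 49.7 and 56.6 CPM in IL-33 libraries (log2 -1.37 ± 0.13, adjusted p = 2.66e-07). Col23a1 went from 127 ± 9.14 to 52.6 ± 5.58 CPM (log2 -1.27 ± 0.08, adjusted p = 4.05e-08). Col17a1, the hemidesmosome collagen of basal epithelium, went from 8.82 ± 1.25 to 3.97 ± 0.472 CPM (log2 -1.15 ± 0.11, adjusted p = 8.91e-06). Of the 3 basal epithelium markers tested 2 were called higher, Trp63 at log2 2.13 and Krt5 at 1.67 (adjusted p = 0.0457), and the Krt5 call was lost in 11 of the alternatives tried, DESeq2 (adjusted p = 0.111) and the length correction (0.104) among them.

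Col28a1, of the remaining class, measured 2.19, 3.17, 1.35, 3.06 and 1.80 CPM in controls and 0.493, 0.919, 1.04, 1.40 and 0.817 CPM in IL-33 libraries (log2 -1.29 ± 0.31, adjusted p = 0.00199). Its groups met, with the highest IL-33 library just above the lowest control. The 7 members left out by the filter averaged 0.148 to 1.22 CPM in controls and 0 to 0.829 CPM in IL-33 lungs. With no low-count filter 2 of the 7 were called lower, Col19a1 (adjusted p = 0.0159), with 8 reads over the controls and 0 over the IL-33 libraries, and Col25a1 (log2 -1.52, adjusted p = 0.0303), with 27 and 9 reads. In that fit 5877 of 30478 genes were lower. The Col19a1 levels lay at or under that of 3 reads per library, and no fold is given.

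Some collagen chains of cartilage differed widely between libraries of the same group. Col10a1, the chain of growth cartilage, measured 0, 8.97, 1.69, 0 and 6.83 CPM in controls 1 to 5 and 0, 4.02, 1.30, 3.04 and 4.83 CPM in IL-33 libraries 1 to 5. Col2a1, the main collagen of cartilage, measured 0.0707, 5.25, 0.788, 0.0875 and 4.17 CPM in controls and 0.197, 1.38, 1.17, 2.57 and 2.90 CPM in IL-33 libraries. Controls 2 and 5 were the highest libraries for both, controls 1 and 4 were at or near 0, and neither gene was called (adjusted p = 0.782 and 0.839).

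The sum of Col2a1, Col9a1, Col9a2, Col10a1 and Col11a1 was 0.212, 20.7, 3.49, 0.0875 and 14.3 CPM in controls, and 0.493, 7.47, 4.15, 8.49 and 10.4 CPM in IL-33 libraries. The sum of 7 cartilage markers, without Sox9 and Comp, was 0.777, 11, 2.48, 0.875 and 7.68 CPM in controls and 1.38, 6.78, 3.76, 7.17 and 8.92 CPM in IL-33 libraries. The same libraries were thus high and low for both sums. Acan, the aggrecan of cartilage, had 0 reads in control 1 and IL-33 library 1. Hapln1, also in the sum, was not low in IL-33 library 1, at 1.28 CPM against 1.26 CPM in IL-33 library 2. Sox9 (log2 3.83) and Comp (1.24, adjusted p = 0.0421, lost in 9 of the alternatives) were called higher. Sox9, a transcription factor that airway epithelium also expresses, was 1.40 to 2.85 CPM in controls and 22.3 to 38.1 CPM in IL-33 libraries. Comp was 0.0875 to 2.08 CPM in controls and 1.58 to 2.53 CPM in IL-33 libraries, with 1.58 CPM in IL-33 library 1. The amount of cartilage in each piece of lung was not tested.

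**Figure D5:**
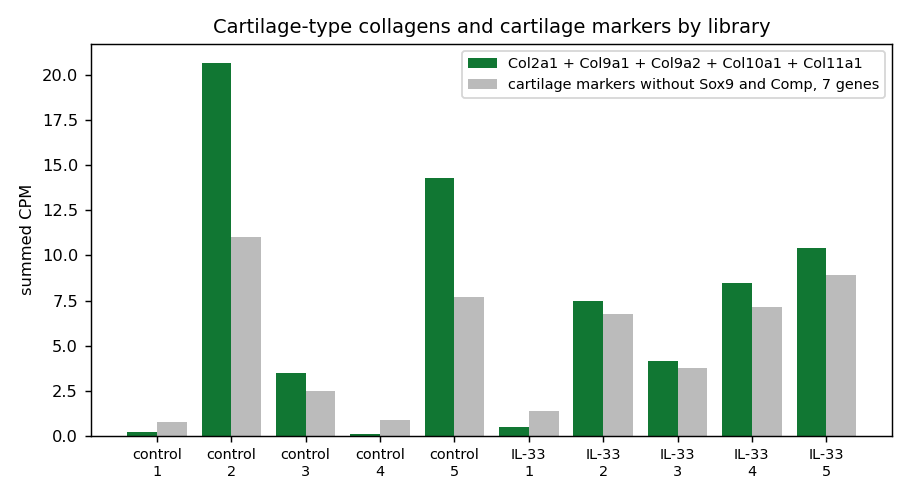
Summed CPM (y axis) of 5 cartilage-type collagen chain genes, without Col9a3 and Col11a2, and of 7 cartilage markers without Sox9 and Comp, in each of the 10 libraries (x axis). Controls 2 and 5 stand at 20.7 and 14.3 CPM for the collagens, and controls 1 and 4 and IL-33 library 1 are under 0.5 CPM.

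Genes that modify, fold and export collagen chains did not move as one. Their counts, and those of the lists that follow, stand beside 35.1% higher and 34.8% lower of all genes tested. Of 15 hydroxylation and glycosylation genes, 2 rose, 6 fell and 7 were not called. Ppib, a prolyl isomerase of collagen folding, went from 181 ± 6.53 to 355 ± 25 CPM (log2 0.97 ± 0.05, adjusted p = 6.19e-08), and P4hb, a subunit of prolyl hydroxylase and the most abundant of the list, from 478 ± 23.1 to 608 ± 29.2 CPM (0.35 ± 0.04, adjusted p = 3.76e-04). The P4hb call did not hold after the length correction (0.09, adjusted p = 0.226). Colgalt2, a collagen galactosyltransferase, fell by 1.58 ± 0.18 on the log2 scale (adjusted p = 7.01e-07). Of 12 chaperone and export genes 3 rose and 4 fell. Creb3l1, a transcription factor of collagen secretion, rose by 0.74 ± 0.15 (log2, adjusted p = 1.74e-04) and Fkbp9 fell by 0.83 ± 0.09. The collagen chaperone Serpinh1 was not called at 335 ± 61.8 and 378 ± 58.3 CPM (adjusted p = 0.278).

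Among genes acting on secreted collagen, most that process its propeptides fell and most that degrade it rose. Of 7 propeptide processing genes tested, 6 fell and 0 rose, and after the length correction 4 fell. Adamts3, a procollagen peptidase, fell by 2.21 ± 0.44 on the log2 scale (adjusted p = 2.57e-04) from 2.18 ± 0.565 CPM, and Pcolce2, an enhancer of processing, went from 309 ± 20.6 to 103 ± 17.9 CPM (-1.58 ± 0.13). Falls were small and the groups overlapped for Bmp1 (-0.19 ± 0.06, adjusted p = 0.0183) and Adamts2 (-0.24 ± 0.10, adjusted p = 0.0308). Pcolce was not called (0.01 ± 0.09, adjusted p = 0.906). Of 6 cross-linking genes 1 fell, the transglutaminase Tgm2 (-0.55 ± 0.07, adjusted p = 3.52e-05), and the 5 lysyl oxidase genes were not called, with Lox at 131 ± 38.4 and 134 ± 17 CPM.

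Of 14 fibril-binding proteoglycan and glycoprotein genes tested, 2 rose and 7 fell, again beside 35.1% and 34.8% of all genes. Ogn and Prelp, small leucine-rich proteoglycans, went from 553 ± 34.8 to 214 ± 43.9 CPM (log2 -1.37 ± 0.14) and from 615 ± 54.9 to 250 ± 47.1 CPM (-1.30 ± 0.13), while Sparc, the most abundant of the list, was not called (-0.12 ± 0.07, adjusted p = 0.217) until the length correction (-0.22, adjusted p = 0.0351). Of 10 receptor and uptake genes 7 fell and 2 rose. The falls included Itgb1, the shared subunit of collagen-binding integrins, at 1000 ± 49.5 and 640 ± 42.1 CPM (log2 -0.64 ± 0.05), and Itga1 (-0.88 ± 0.11) and Itga11 (-1.01 ± 0.34). Of 8 degradation genes, 6 rose and 1 fell. Mmp13, a collagenase, went from 1.44 ± 0.346 to 11.2 ± 3.14 CPM (2.95 ± 0.22, adjusted p = 1.99e-07), Ctsk, a lysosomal collagen protease, from 26.0 ± 6.04 to 113 ± 11.4 CPM (2.13 ± 0.15, adjusted p = 2.88e-08), and the gelatinase Mmp2 from 186 ± 17.3 to 251 ± 20 CPM (0.44 ± 0.08).

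Most markers of fibroblasts, the main source of fibrillar and type VI collagen, were lower. Of 12 fibroblast markers 2 rose and 8 fell, and after the length correction 1 rose and 11 fell (all genes: 34.8% and 38.7% lower), with sums of 5307 to 5859 CPM in controls and 2777 to 3415 CPM in IL-33 libraries. Npnt fell by 1.62, Pdgfra fell by 1.37 and Inmt fell by 0.98 on the log2 scale. Pi16 (0.38, adjusted p = 0.0279) and Clec3b (0.36, adjusted p = 0.00164) rose, and Dpt and Mfap4 were not called. Of 9 myofibroblast and smooth muscle markers 3 rose and 2 fell, with overlapping sums of 1486 to 1840 and 1605 to 1843 CPM. Actg2 rose by 1.14, Acta2 by 0.69 and Tagln by 0.62 on the log2 scale, while Myh11 (-0.41, adjusted p = 0.0109) and Cnn1 (-0.33, adjusted p = 0.0480) fell. Postn was not called (-0.20, adjusted p = 0.144), and was called lower without IL-33 library 5 (-0.30, adjusted p = 0.0230). Alveolar type 2 markers were higher in 1 and lower in 6 of 8, mesothelium markers higher in 2 and lower in 3 of 6, and none of 3 Schwann cell markers was called. The part of these cell types in the collagen changes was not tested.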

How the data were processed

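Per the submitters' processing notes, FastQC 0.11.6, MultiQC 1.6, STAR 2.5.4b, HTSeq 0.9.1 and the GRCm38 genome were used. The deposited files hold the authors' raw read counts per gene. The sources used here do not give the annotation release, the strand setting or the read length. Records without a gene name were dropped (by group in the report, beside 0.862% to 0.945% ambiguous). Libraries of a group differed beyond sampling noise (5.44 to 30 chi-square units per degree of freedom), and all were kept. The labels do not state that each sample came from a separate mouse, so p-values measure the spread between these samples, which may be technical.

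The counts of the 10 libraries were fitted together with edgeR 4.0.16 in R 4.3.3, group being the single term, with TMM factors of 0.969 to 1.03 and the filterByExpr filter. SEs come from log2(CPM + 0.1) over the libraries. Ratios of partner chains used counts + 0.5 and two-sided exact permutation tests, adjusted over 12 of 14 listed pairs whose genes passed the filter. Exonic length, gene positions and exons came from GENCODE for GRCm38, which matched 53360 identifiers. Upstream windows came from RefSeq. The collagen classes, the naming rule (the most abundant gene per length of each class, the 4 largest rises and falls at 1 CPM or more, the chains of called pairs, and 2 called genes and the most abundant of each other list), the lists and the members were chosen with earlier results of these data known. Other genes printed were chosen after their values were seen. Alternatives were other scalings, filters and tools (DESeq2 1.42.0, limma 3.58.1), the replicate block, a length and GC correction, leaving out each library, an adjusted p of 0.01 and a test against 1.5-fold. The fit was also run on simulated data in which far fewer genes were changed than were called here. Its error rate in data like these was not tested. Counting errors only are covered by the 3-read floor (0.218 to 0.384 CPM).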

Additional observations from a re-analysis of the deposited data

Results flagged for a closer look

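One collagen value stood apart from the rest of its group. Col16a1, a FACIT chain gene, measured 76.5 CPM in control library 4, and 68.8 to 70.8 CPM in the other controls. It was the single case in 74 groups of 5 libraries (37 genes, 2 groups each), where chance gives about 1 in 20. Every control stayed above every IL-33 library for this gene, which ranged from 43.4 to 57.5 CPM.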

How the results depend on the processing

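The 11 rises and 18 falls were counted again with other scalings, filters and tools. They came to 11 and 18 with DESeq2 size factors, library size alone, at least 1 CPM in 5 libraries, DESeq2 and limma-voom, to 11 and 20 with no low-count filter (44 members tested), and to 11 and 16 at an adjusted p of 0.01. Over all genes, the scalings and tools that gave 11 and 18 had 5366 to 5502 higher and 5422 to 5577 lower. No low-count filter gave 6243 and 5877 of 30478 genes, and an adjusted p of 0.01 gave 4790 and 4526 of 15695. A test against a 1.5-fold change gave 8 and 11, beside 2813 higher and 1928 lower of all 15695 genes. Leaving out each library gave 11 to 13 rises and 16 to 18 falls in 37 to 39 members tested. Over all genes these fits gave 5338 to 5531 higher and 5178 to 5558 lower. The length correction gave 15 and 14, also with the replicate block added (all genes: 4673 and 6077, and 4728 and 6167 with the block). Among members called in either fit, it turned the sign of Col5a1 to 0.03, Col6a3 to 0.29, Col7a1 to 0.11 and Col27a1 to 0.13, and with the replicate block added to 0.03, 0.30, 0.11 and 0.13. Col2a1, called in none of these, went from -0.20 to 0.27 (0.47 with the block). The cause was not tested. The median of the members ranged from -0.37 to 0.13 and is therefore not a stable summary. Without each library in turn, Col5a1 was not called in 4 settings (adjusted p 0.0522 to 0.0677) and Col7a1 in 4 (0.0501 to 0.0719).

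The shared replicate numbers were checked for pairing. Correlations of same-numbered deviations were 0.242, 0.221, 0.0613, -0.0629 and 0.155, and the bar for pairing was over 0.1 in every pair. The labels give the numbers no shared litter or day, so pairing is not established. With the replicate block 12 members rose and 18 fell (all genes: 5574 and 5548 of 15695), and Col11a2 (0.40, adjusted p = 0.0478) and Serpinh1 (0.18, adjusted p = 0.0433) were called higher. Of the chain ratios, 10 were called with counts + 5, and 9 to 11 without each library. They were not computed under the length correction. The block test by sign flips of these ratios called 0 of 12, against 10, since its smallest p is 0.0625 (0.0750 after adjustment) in 5 pairs.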
